A study of Mus musculus with 8 samples.

Results

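The mRNA levels of 8 liver-enriched transcription factors outside the nuclear receptor family were followed in mouse liver: Foxa1, Foxa2, Foxa3, Cebpa, Onecut1, Onecut2, Prox1 and Tcf7l2. They were chosen by name, with earlier results of these data known, from the 23337 gene symbols in the count files. All 8 passed the filter on low counts among 14328 tested genes. Liver RNA came from WT and HRD1Alb mice of the C57BL/6 strain at 12 weeks of age. In HRD1Alb mice a Cre transgene under the albumin promoter deletes floxed HRD1, the ubiquitin ligase of the endoplasmic reticulum that the files list as Syvn1, and it acts in hepatocytes and in their precursors, the hepatoblasts, from which bile duct cells also arise. Livers of both genotypes were sampled after an overnight fast and after 4 h of refeeding that followed such a fast, which gave 4 groups of 2 samples. For its other assays the study describes the controls as floxed mice without Alb-Cre, whereas for the sequenced livers the labels give only WT.

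FOXA1, FOXA2 and FOXA3 are forkhead proteins that bind DNA in closed chromatin, and they act from the first specification of the liver onward. C/EBPα, encoded by Cebpa, drives metabolic genes of the mature hepatocyte, and HNF6 and OC-2, encoded by Onecut1 and Onecut2, act in the segregation of hepatocytes and biliary cells and in hepatic glucose and bile acid metabolism. PROX1 is a homeobox factor needed for hepatoblast migration and a partner of HNF4α, and it is also the defining factor of lymphatic endothelium. TCF7L2 is the main nuclear partner of β-catenin in liver, where Wnt signals set the gene programme of hepatocytes around the central vein.

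The promoters below are shown because the bases before their start hold the binding letters of one of these factor families or a TATA box close to the start. RefSeq lists promoter windows for 7 of the 8 genes on GRCm38.p6, each from 250 bases before to 50 bases after a transcription start. Both strands of these windows were searched for the forkhead motif TGTTTAC, the ONECUT motif ATTGAT, the C/EBP motif TTGCNNAA, the E-box CACGTG, the TCF/LEF motif CTTTGAT and the TATA box TATAAA. The 250 bases before the start are printed 5′ to 3′ on the gene's strand, in lower case with each match in capitals. No match overlapped another in the printed windows.
Foxa1, chr12:57546112-57546361, minus strand: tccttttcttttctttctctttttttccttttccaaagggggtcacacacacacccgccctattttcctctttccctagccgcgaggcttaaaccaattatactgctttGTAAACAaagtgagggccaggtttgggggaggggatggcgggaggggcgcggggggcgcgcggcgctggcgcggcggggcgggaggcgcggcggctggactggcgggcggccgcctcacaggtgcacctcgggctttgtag
Foxa2, chr2:148046970-148047219, minus strand: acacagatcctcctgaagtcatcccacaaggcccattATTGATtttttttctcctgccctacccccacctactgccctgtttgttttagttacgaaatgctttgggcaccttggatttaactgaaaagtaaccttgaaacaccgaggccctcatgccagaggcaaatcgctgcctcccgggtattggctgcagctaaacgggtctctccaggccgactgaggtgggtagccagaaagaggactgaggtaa
Foxa3, chr7:19023540-19023789, minus strand: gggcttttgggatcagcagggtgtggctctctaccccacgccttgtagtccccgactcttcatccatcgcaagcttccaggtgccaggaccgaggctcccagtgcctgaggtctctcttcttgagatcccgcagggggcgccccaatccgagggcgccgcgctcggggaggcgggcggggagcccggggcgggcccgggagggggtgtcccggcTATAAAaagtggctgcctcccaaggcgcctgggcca
Cebpa, chr7:35119043-35119292, plus strand: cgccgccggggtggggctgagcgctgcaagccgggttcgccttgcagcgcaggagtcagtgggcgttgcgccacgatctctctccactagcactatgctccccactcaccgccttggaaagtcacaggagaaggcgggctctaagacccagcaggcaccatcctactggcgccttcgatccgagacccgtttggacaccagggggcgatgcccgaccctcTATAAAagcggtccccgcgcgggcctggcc
Prox1, chr1:190170828-190171077, minus strand: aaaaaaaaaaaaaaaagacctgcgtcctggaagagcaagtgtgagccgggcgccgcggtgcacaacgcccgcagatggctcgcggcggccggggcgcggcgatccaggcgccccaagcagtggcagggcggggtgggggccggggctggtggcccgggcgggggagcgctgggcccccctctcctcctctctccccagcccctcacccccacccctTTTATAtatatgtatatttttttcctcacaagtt

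The Foxa1 window held the forkhead letters, read on the opposite strand, from position -141 relative to the start, and 3.65% of 32851 RefSeq promoter windows of the mouse held a match. The window before the outermost of 3 Foxa2 starts held the ONECUT letters at -213, as did 7.54% of all windows. Foxa3, Cebpa and the outer of 2 Prox1 windows held a TATA box at -36, -30 and -34, that of Prox1 read on the opposite strand, and the same letters stood farther out, also on the opposite strand, in the innermost Foxa2 window at -208 and in 1 of 2 Tcf7l2 windows at -242, against 13.6% of all windows with a match at any position. Onecut1 held an E-box at -232, against 7.15% of all windows, and its window is not printed because it held no other match. No window of the 7 genes held the C/EBP letters, which 10.8% of all windows did, and a TCF/LEF match was found only behind the innermost Foxa2 start, against 3.73% of all windows. These are matches of letters and say nothing about binding. In GENCODE M21 on GRCm38 the Foxa1 window lay inside the gene, upstream of the RefSeq start but downstream of another annotated start, with 10 of its bases in an exon, and the other printed windows lay before the gene.

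The genes themselves were located in GENCODE M21, with exon lengths taken over all transcripts of a gene. Cebpa lies on chromosome 7 at 35119293 to 35121928 and has 2.636 kb of exon. Foxa3 lies on the same chromosome at 19013284 to 19023538 with 2.037 kb, Foxa2 on chromosome 2 at 148042877 to 148046969 with 2.37 kb, and Foxa1 on chromosome 12 at 57540628 to 57546916 with 3.327 kb. Onecut1 lies on chromosome 9 at 74861921 to 74891781 with 4.113 kb. Prox1 on chromosome 1, at 190118035 to 190170714, and Tcf7l2 on chromosome 19, at 55741820 to 55933654, have 8.39 and 8.775 kb of exon, and Onecut2 on chromosome 18 has 16.23 kb. Onecut1 shares 2171 exon bases with the non-coding gene Gm20649 on the same strand, Prox1 shares 133 exon bases with the antisense gene Prox1os, and Cebpa shares 51 with the antisense gene Gm45091. None of those 3 genes has a row in the count files and strand use in counting is not given in the sources used here, so reads from the shared bases cannot be told apart.

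Total counts per sample ranged from 40210576 to 49117080, and levels are given as TMM-scaled CPM, the counts relative to the size of the library, where 3 counts were worth 0.0508 to 0.0788 CPM. The deleted gene was examined first. Syvn1 was at 111 and 99.8 CPM in fasted WT liver and at 32.6 and 31.5 CPM in fasted HRD1Alb liver, so both deleted livers were lower. In the refed state it was at 637 and 305 CPM in WT liver and at 453 and 132 CPM in HRD1Alb liver. The library labelled HRD1Alb refed replicate 1 thus lay within the range of refed WT liver, and neither genotype difference passed the test (log2 fold change -1.72, adjusted p = 0.17 fasted, and -0.69, adjusted p = 0.391 refed, edgeR's quasi-likelihood test). By the same test Syvn1 had a log2 change on refeeding of 2.16 in WT liver (adjusted p = 0.111). In HRD1Alb liver this change was 3.19 (adjusted p = 0.0213), which passed. Both refed HRD1Alb libraries lay above both fasted WT libraries. Counts per gene do not separate reads of the deleted exons from those of the remaining ones. The HRD1Alb refed pair stood apart in another way. Across 12941 genes the ratio of replicate 2 to replicate 1 fell with exon length (Spearman's rho -0.505). This rho, taken across genes of 1 pair of libraries, lay between -0.118 and 0.0101 in the other groups. At least 2-fold differences between replicates were found for 3204 genes in this pair, against 424 to 1141 in the other groups. A ratio within a pair does not tell which of its 2 libraries departs. Results of refed HRD1Alb liver are therefore given with and without each of these 2 libraries.

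Cebpa was the most abundant of the 8 mRNAs in WT liver when levels were divided by exon length. Fasted WT liver held 100 CPM per kb of Cebpa, 21.4 of Foxa3, 11.5 of Foxa2, 9.03 of Foxa1, 8.13 of Prox1, 7.02 of Onecut2, 3.33 of Tcf7l2 and 0.789 of Onecut1, as means of 2 samples. Of the neighbours in this order, Prox1 and Onecut2 overlapped between samples and the other neighbours did not. In refed WT liver the order of CPM per kb was Cebpa at 158, Foxa3 at 42.2, Foxa2 at 14, Onecut2 at 10.8, Prox1 at 9.4, Foxa1 at 6.57, Tcf7l2 at 3.34 and Onecut1 at 3.08, where the samples of Tcf7l2 and Onecut1 overlapped. Foxa1 thus stood above Prox1 and Onecut2 in fasted WT liver and below them in refed WT liver. In refed HRD1Alb liver Prox1 was at 2.32 CPM per kb, next to last in the order, and its samples overlapped with those of Tcf7l2 above it and Onecut1 below it.

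**Figure D1:**
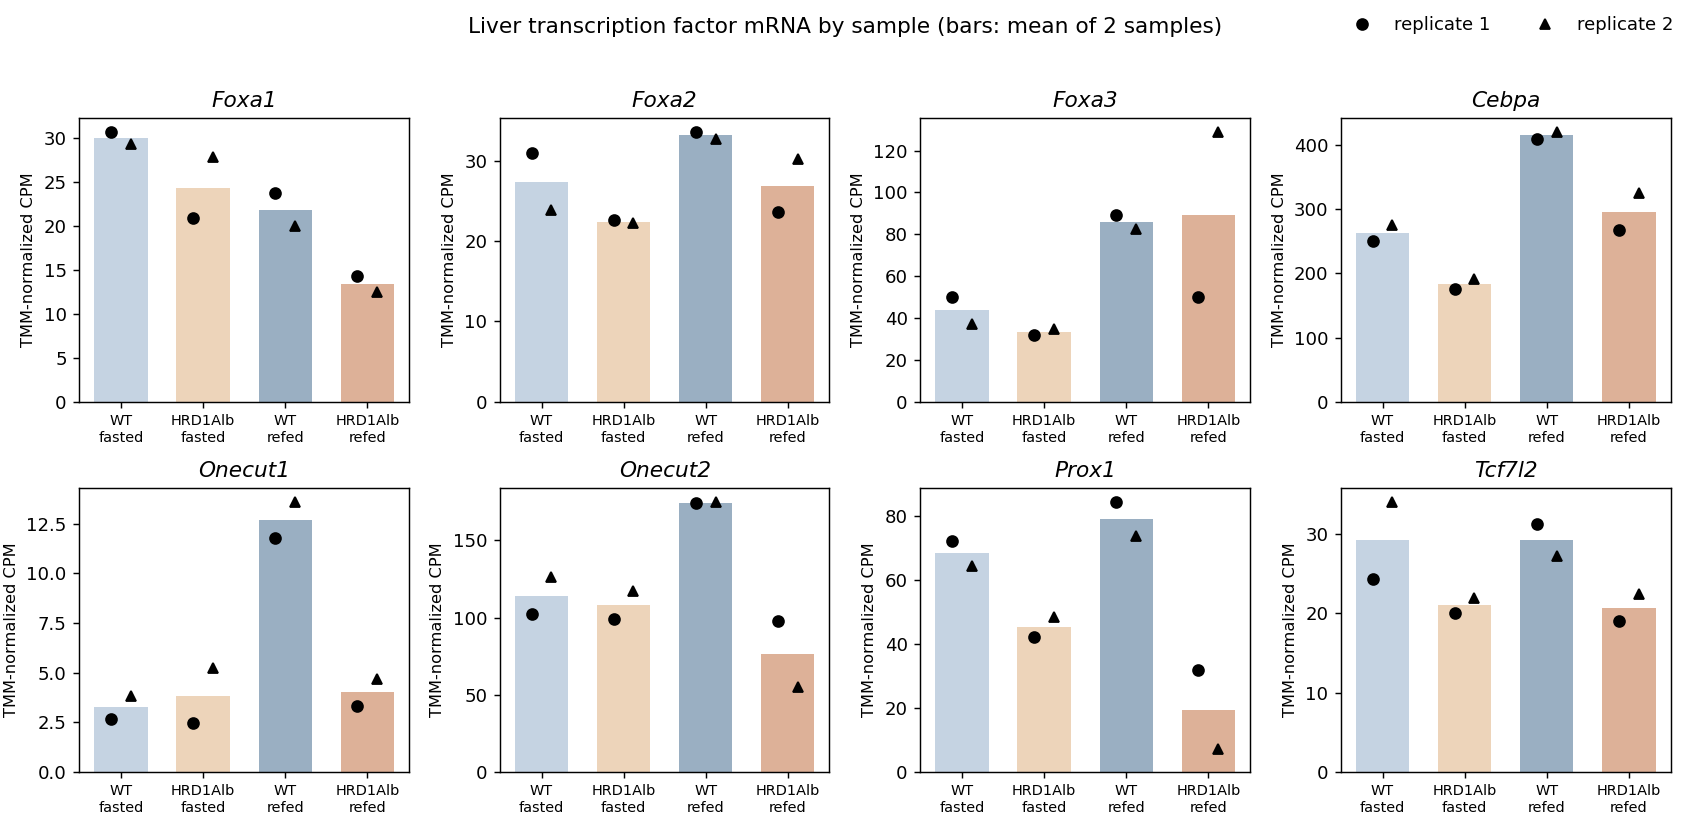
Level of each of the 8 mRNAs in TMM-normalized CPM on the vertical axis, each panel with its own scale from 0, in the 4 groups on the horizontal axis. Bars are means of 2 samples, circles replicate 1 and triangles replicate 2. Onecut1 stands out in refed WT liver at 11.8 and 13.6 CPM, and the refed HRD1Alb replicates lie far apart for Foxa3 and Prox1.

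Refeeding of WT mice was examined first, to describe how these mRNAs respond to food with HRD1 present. Onecut1 was at 2.64 and 3.84 CPM in fasted WT liver and at 11.8 and 13.6 CPM in refed WT liver, which is 3.9-fold higher in the mean. Its log2 fold change was 1.96 (SE 0.39), with an adjusted p of 0.0512 that did not pass the threshold of 0.05. Cebpa was at 251 and 276 CPM fasted and at 410 and 421 CPM refed (log2 fold change 0.66, SE 0.16, adjusted p = 0.0969). The 2 groups did not overlap for either gene.

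Foxa3 was at 50.2 and 37.2 CPM in fasted and at 89.4 and 82.7 CPM in refed WT liver (log2 fold change 0.98, SE 0.4, adjusted p = 0.282). Onecut2 was at 102 and 126 CPM fasted and at 174 and 175 CPM refed (log2 fold change 0.61, SE 0.27, adjusted p = 0.325). The 2 refed samples lay above the 2 fasted ones for both genes. Foxa2, at 30.9 and 23.8 CPM fasted and 33.6 and 32.7 CPM refed, and Prox1, at 72.2 and 64.3 CPM fasted and 84.3 and 73.5 CPM refed, also did not overlap but differed by less (log2 fold changes 0.28 and 0.21, adjusted p = 0.564 and 0.915). Foxa1 went the other way, from 30.7 and 29.3 CPM to 23.7 and 20 CPM (log2 fold change -0.46, SE 0.2, adjusted p = 0.306). Tcf7l2 overlapped between the states, at 24.4 and 34.1 CPM fasted and 31.3 and 27.3 CPM refed.

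Of the 8 factors, 0 passed the test on refeeding in WT liver, where 2.61% of all tested genes did (374 genes), and 4 of the 8 had an unadjusted p under 0.05, as did 16.3% of all tested genes. Both refed samples lay above both fasted ones for 6 of the 8 factors, and 30.8% of all tested genes showed that pattern. The spread in this fit is shared with the HRD1Alb refed pair. With both HRD1Alb refed libraries left out, a choice made after the data were seen, 4 of the 8 passed while 18% of all tested genes did: Onecut1 rose by 1.96 (adjusted p = 0.0112), Foxa3 by 0.98 (adjusted p = 0.00571), Cebpa by 0.66 (adjusted p = 0.006) and Onecut2 by 0.62 (adjusted p = 0.0203) on the log2 scale. The median log2 change of the 8 factors on refeeding in WT liver was 0.45, beside a median of 0 over all tested genes.

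**Figure D2:**
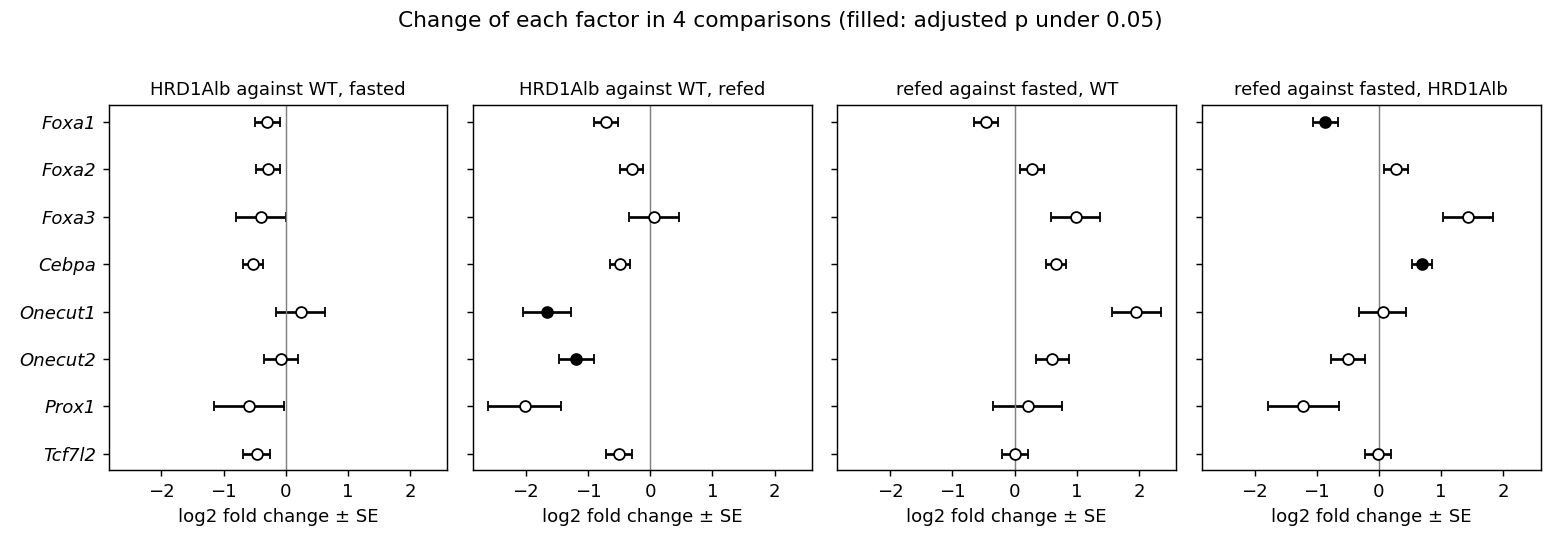
Log2 fold change of each factor on the horizontal axis, with bars of 1 SE from edgeR's fit over 8 samples, in 4 comparisons. Filled points have an adjusted p under 0.05: Onecut1 and Onecut2 between genotypes in refed liver, and Foxa1 and Cebpa on refeeding of HRD1Alb mice. The fasted genotype panel has no filled point.

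Refed livers of both genotypes were then compared, which asks how the factors stand after a meal in livers labelled HRD1Alb. Onecut1 was at 11.8 and 13.6 CPM in refed WT liver and at 3.33 and 4.69 CPM in refed HRD1Alb liver, 3.16-fold lower in the mean. It fell by 1.66 on the log2 scale (SE 0.39, adjusted p = 0.0389). Onecut2 was at 174 and 175 CPM in WT and at 97.7 and 55.1 CPM in HRD1Alb liver and fell by 1.19 (SE 0.28, adjusted p = 0.0376). The levels of Onecut1 in refed HRD1Alb liver lay in the range of fasted liver, where it was at 2.46 to 5.21 CPM over the 4 samples of both genotypes. The third member of the family, Onecut3, had 0 counts in all 8 samples, which allows up to 0.0508 to 0.0788 CPM for counting error.

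Prox1 had the largest fitted difference of the 8, without passing the test. It was at 84.3 and 73.5 CPM in refed WT liver, at 31.8 CPM in HRD1Alb replicate 1 and at 7.06 CPM in replicate 2 (log2 fold change -2.02, SE 0.58, adjusted p = 0.0634). Both HRD1Alb samples were below both WT samples, and they were also below the fasted HRD1Alb samples, at 42.2 and 48.3 CPM. Foxa1 was at 23.7 and 20 CPM in WT and at 14.3 and 12.5 CPM in HRD1Alb liver (log2 fold change -0.71, SE 0.2, adjusted p = 0.0589). Cebpa was at 410 and 421 CPM in WT and at 267 and 326 CPM in HRD1Alb liver (log2 fold change -0.49, SE 0.16, adjusted p = 0.0907). Tcf7l2 (31.3 and 27.3 CPM in WT, 19.1 and 22.4 CPM in HRD1Alb) and Foxa2 (33.6 and 32.7 CPM in WT, 23.6 and 30.2 CPM in HRD1Alb) did not overlap between genotypes either, with adjusted p of 0.143 and 0.298. Foxa3 was at 89.4 and 82.7 CPM in refed WT liver and at 49.8 and 129 CPM in refed HRD1Alb liver, so that its 2 HRD1Alb samples lay on either side of WT.

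In refed liver 2 of the 8 factors thus passed the test, both lower in HRD1Alb, where 11.9% of all tested genes passed in either direction. Both HRD1Alb samples were below both WT samples for 7 of the 8 factors, which held for 30.1% of all tested genes. The median log2 difference of the 8 was -0.6, beside 0.04 over all tested genes.

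These calls depended on which HRD1Alb library was used. Without replicate 1, the library whose Syvn1 level goes against its label, 52.8% of all tested genes passed and 6 of the 8 factors did: the log2 fold changes were -1.44 for Onecut1, -1.67 for Onecut2, -3.49 for Prox1 (adjusted p = 5.58e-05), -0.81 for Foxa1, -0.36 for Cebpa and 0.58 for Foxa3. Without replicate 2, the other library of the pair, the log2 fold changes were -1.93 for Onecut1, -0.84 for Onecut2 and -1.32 for Prox1. In the same fit they were -0.62 for Foxa1, -0.64 for Cebpa and -0.79 for Foxa3. Each of these fits holds 1 HRD1Alb refed library, which is assumed to vary like the samples of the other groups. Onecut1 and Onecut2 passed in both, Prox1 and Cebpa passed in both but not with all 8 libraries, and Foxa3 had opposite signs. Few genes of any kind passed when a library of another group was left out. With either WT refed library left out 0 of the 8 passed, where 0.0068% and 0.0136% of all tested genes did, and with either WT fasted library left out 0 of the 8 passed, where 5.28% and 5.11% did. With either HRD1Alb fasted library left out 1 of the 8 passed, where 2.83% and 2.91% did.

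**Figure D3:**
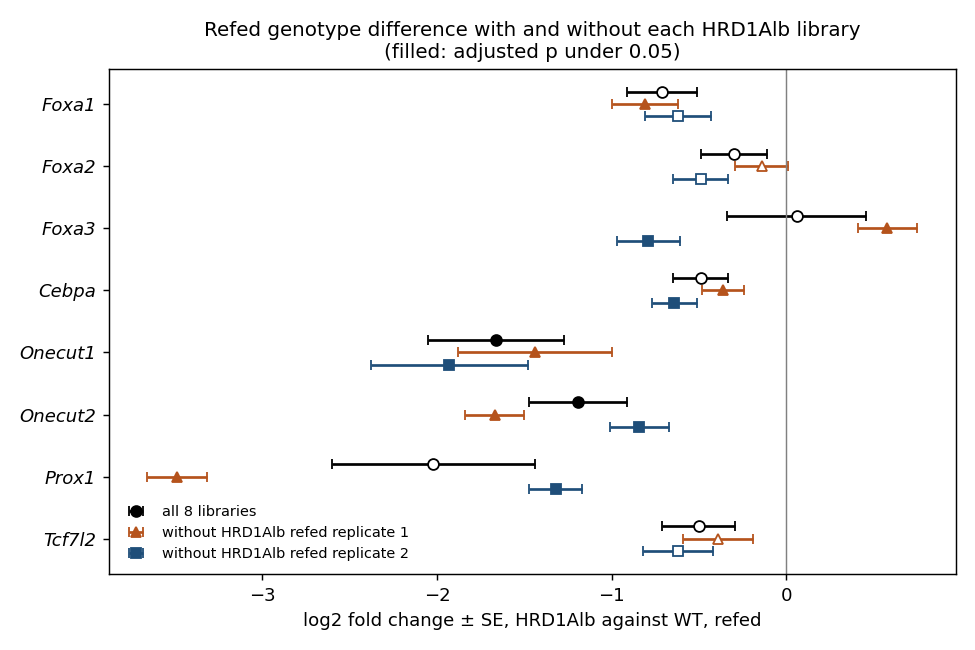
Log2 fold change between genotypes in refed liver on the horizontal axis, with bars of 1 SE, for each factor with all 8 libraries (circles) and without 1 of the 2 HRD1Alb refed libraries (triangles and squares). Filled points have an adjusted p under 0.05. Onecut1 and Onecut2 are lower in every fit shown, the values of Prox1 range from -3.49 to -1.32, and Foxa3 lies on either side of 0.

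The members with the widest gap between the 2 refed HRD1Alb replicates were among the shortest and the longest mRNAs. The log2 ratio of replicate 2 to replicate 1 was 1.37 for Foxa3, the shortest with 2.04 kb of exon, -2.17 for Prox1 with 8.39 kb and -0.83 for Onecut2 with 16.2 kb. Tcf7l2, with 8.78 kb, had a ratio of 0.23, and the other 4 factors lay between -0.19 and 0.49. In the other groups the ratio lay between -0.43 and 0.54, except for Onecut1 in fasted HRD1Alb liver at 1.07. After a correction of each library for exon length, 5 of the 8 factors passed the test between genotypes in refed liver, where 16.7% of all tested genes did. The share of exon length in the differences of single factors was not tested.

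**Figure D4:**
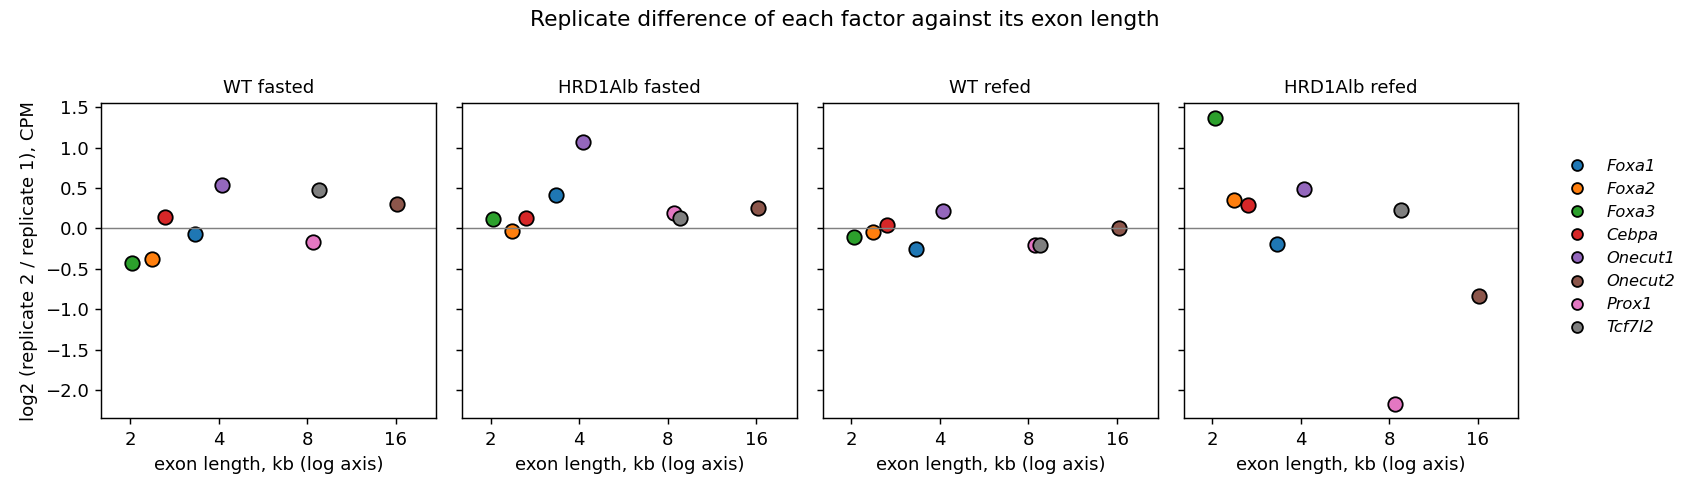
Log2 ratio of replicate 2 to replicate 1 (CPM) on the vertical axis against exon length in kb on a logarithmic horizontal axis, 1 point per factor in each of the 4 groups. In refed HRD1Alb liver Foxa3 lies at 1.37 and Prox1 at -2.17, and the points of WT refed liver lie between -0.25 and 0.21.

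In fasted liver none of the 8 factors passed the test between genotypes, where 1.35% of all tested genes did (194 genes) and 2630 genes had an unadjusted p under 0.05. Cebpa was at 251 and 276 CPM in fasted WT and at 176 and 192 CPM in fasted HRD1Alb liver (log2 fold change -0.52, SE 0.16, adjusted p = 0.161). Prox1 was at 72.2 and 64.3 CPM in WT and at 42.2 and 48.3 CPM in HRD1Alb liver (log2 fold change -0.59, SE 0.56, adjusted p = 0.638). The genotypes did not overlap for either gene. Tcf7l2 was at 24.4 and 34.1 CPM in WT and at 20.1 and 22 CPM in HRD1Alb liver, Foxa3 at 50.2 and 37.2 CPM against 31.8 and 34.6 CPM, Foxa1 at 30.7 and 29.3 CPM against 20.9 and 27.8 CPM, and Foxa2 at 30.9 and 23.8 CPM against 22.6 and 22.2 CPM, with log2 fold changes from -0.47 to -0.29. Onecut1, at 2.64 and 3.84 CPM against 2.46 and 5.21 CPM, and Onecut2, at 102 and 126 CPM against 98.8 and 117 CPM, overlapped between the genotypes. Both HRD1Alb samples were below both WT samples for 6 of the 8 factors, and 34.2% of all tested genes showed this pattern. With both HRD1Alb refed libraries left out, Cebpa passed at a log2 fold change of -0.52 (adjusted p = 0.0151) and Prox1 at -0.59 (adjusted p = 0.0161), so that 2 of the 8 passed where 22.2% of all tested genes did. Cebpa differed by -0.52 in the fasted and by -0.49 in the refed comparison. These comparisons share no samples but come from 1 fit, and Cebpa passed in neither with all 8 libraries.

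Refeeding of HRD1Alb mice was followed by a change of 2 of the 8 factors, where 10.5% of all tested genes changed. Foxa1 fell from 20.9 and 27.8 CPM to 14.3 and 12.5 CPM, by 0.86 on the log2 scale (SE 0.2, adjusted p = 0.0375). Cebpa rose from 176 and 192 CPM to 267 and 326 CPM, by 0.69 (SE 0.16, adjusted p = 0.0418). Foxa3 was at 31.8 and 34.6 CPM fasted and at 49.8 and 129 CPM refed (log2 fold change 1.43, SE 0.4, adjusted p = 0.0638). Onecut1 overlapped between the states, at 2.46 and 5.21 CPM fasted and 3.33 and 4.69 CPM refed, with a log2 fold change of 0.06 (SE 0.38). Prox1 and Onecut2 were lower in both refed than in both fasted HRD1Alb samples, with log2 fold changes of -1.22 and -0.5 and adjusted p of 0.187 and 0.244. Foxa2 and Tcf7l2 had log2 fold changes of 0.27 and -0.02. Both refed samples were above both fasted ones for 3 factors (Foxa2, Foxa3 and Cebpa) and below them for 3 (Foxa1, Onecut2 and Prox1), against 29.2% and 29.5% of all tested genes. Without the library labelled HRD1Alb refed replicate 1, 6 of the 8 passed where 51.4% of all tested genes did, and Prox1 fell by 2.68 (adjusted p = 7.02e-05). Without replicate 2, 3 of the 8 passed where 19.7% of all tested genes did, and Prox1 fell by 0.51 (adjusted p = 0.0481). With any 1 of the 4 WT libraries left out 0 of the 8 passed, where 4.43% and 4.66% (WT fasted) and 3.05% and 3.1% (WT refed) of all tested genes did, and with either HRD1Alb fasted library left out 0 of the 8 passed, where 0.102% and 0.239% did.

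Whether the response to food differed between genotypes was tested by the interaction of genotype with feeding. On refeeding Onecut1 had a log2 change of 1.96 in WT and 0.06 in HRD1Alb liver, a difference of -1.9 (SE 0.55, unadjusted p = 0.0094, adjusted p = 0.561 by edgeR). For Onecut2 the changes were 0.61 and -0.5, a difference of -1.11 (SE 0.39, unadjusted p = 0.022, adjusted p = 0.58). For Prox1 the difference was -1.43 (SE 0.79, adjusted p = 0.614), for Foxa1 -0.4 (SE 0.28) and for Foxa3 0.45 (SE 0.56). Cebpa, Foxa2 and Tcf7l2 had differences from -0.02 to 0.03, with SEs from 0.23 to 0.29. The interaction passed the test for 0% of all tested genes with edgeR, 1209 genes had an unadjusted p under 0.05, and DESeq2 and limma-trend called 105 genes and 0 genes. Without the library labelled HRD1Alb refed replicate 1, 3 of the 8 passed where 33.4% of all tested genes did: Prox1 at -2.89, Onecut2 at -1.59 and Foxa3 at 0.98. Without replicate 2, 0 of the 8 passed, where 0.69% of all tested genes did.

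Of 15 other liver transcription factors that work with the 8, 14 were tested. Between genotypes 0 passed in fasted liver and 2 passed in refed liver, both higher in HRD1Alb: Cebpb, the C/EBP family member of the acute phase response, rose from 30.8 and 25.8 CPM to 54.2 and 78.1 CPM (log2 fold change 1.22, SE 0.24, adjusted p = 0.0249), and Cebpd rose from 2.22 and 1.81 CPM to 4.59 and 5.68 CPM (log2 fold change 1.34, SE 0.26, adjusted p = 0.0242). In these livers Cebpa, the family member among the 8, had a log2 difference of -0.49. Cebpd also fell on refeeding, with log2 fold changes of -1.77 in WT and -1.18 in HRD1Alb liver. Hnf4a, the nuclear receptor at the centre of this network, was at 733 and 563 CPM in refed WT and at 512 and 339 CPM in refed HRD1Alb liver (log2 fold change -0.61, adjusted p = 0.145). The median log2 difference of the 14 genes in refed liver was -0.06, beside 0.04 over all tested genes. Without the library labelled HRD1Alb refed replicate 1, 2 genes of this list passed as higher and 7 as lower, and without replicate 2 these counts were 5 and 2, with Cebpb and Cebpd higher in both. These counts, and those of the lists that follow, stand beside 11.9% of all tested genes that passed between genotypes in refed liver with all libraries, 52.8% without replicate 1 and 23.7% without replicate 2. Cebpb and Cebpd were also the ones that passed in fasted liver, as higher in HRD1Alb, with both HRD1Alb refed libraries left out. Between genotypes in fasted liver 1.35% of all tested genes passed with all libraries and 22.2% in that fit. These shares also stand beside the lists that follow.

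Genes that FOXA factors, C/EBPα or HNF6 are known to regulate in hepatocytes were counted next (20 genes, 19 of them in the files and tested). In fasted liver 1 of 19 passed between genotypes: Cyp7a1, the rate-limiting enzyme of bile acid synthesis, fell from 271 and 370 CPM in WT to 111 and 85.3 CPM in HRD1Alb liver (log2 fold change -1.71, SE 0.22, adjusted p = 0.0266). In refed liver 5 of 19 passed as lower and 1 as higher. The lower genes included Cyp8b1, the sterol hydroxylase of cholic acid synthesis, at a log2 fold change of -2.11, Apob, the apolipoprotein of very low density lipoproteins, at -1.24, F9, coagulation factor IX, at -1.04, and Pck1, an enzyme of gluconeogenesis, at -0.84. Hamp, which encodes the iron hormone hepcidin, rose by 1.14. The median log2 difference of the 19 genes was -0.58 in refed and -0.46 in fasted liver, beside 0.04 and -0.02 over all tested genes.

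On refeeding, 3 of the 19 genes fell in WT liver and 5 fell in HRD1Alb liver, where 2.61% and 10.5% of all tested genes passed in either direction. The fallen genes shared by both counts were Igfbp1, a FOXA target repressed by insulin, with log2 fold changes of -6.39 in WT and -4.69 in HRD1Alb liver, G6pc, the phosphatase that releases glucose, with -3.14 and -2.95, and Pck1 with -3.04 and -3.4. In HRD1Alb liver Cyp8b1 (-1.96) and Gys2, the liver glycogen synthase (-0.95), also fell, and Hamp (1.88) and Cyp7a1 (1.5) rose. Without the library labelled HRD1Alb refed replicate 1, 1 gene of the list passed as higher and 9 as lower between genotypes in refed liver, and without replicate 2 these counts were 2 and 9. With both HRD1Alb refed libraries left out, 9 of the 19 passed as lower in fasted HRD1Alb liver, where 22.2% of all tested genes passed in either direction. In the same fit 5 passed as lower on refeeding in WT liver, where 18% of all tested genes passed.

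The pathway that acts through TCF7L2 was described by 23 Wnt and β-catenin genes, of which 22 were tested. Between genotypes 0 passed in fasted liver and 3 in refed liver, all lower in HRD1Alb, where 11.9% of all tested genes passed in either direction. Lgr4, a receptor for the R-spondins that amplify Wnt signals, fell from 65.2 and 69.9 CPM to 27.6 and 22.6 CPM (log2 fold change -1.43, SE 0.16, adjusted p = 0.0082). Tcf7l1, a repressive relative of TCF7L2, fell by 0.84 and Fzd4, a Wnt receptor, fell by 0.83. In the same comparison Tcf7l2 itself had a log2 difference of -0.5, and Ctnnb1, which encodes β-catenin, had one of -0.19 (adjusted p = 0.48). On refeeding of HRD1Alb mice Lgr4 and Fzd4 also fell, with log2 fold changes of -1.05 and -0.93, where 10.5% of all tested genes passed. On refeeding of WT mice 0 of the 22 genes passed, where 2.61% of all tested genes did. With both HRD1Alb refed libraries left out, 4 genes of the list passed as lower on refeeding of WT mice, among them Fzd4. In that fit 2 passed as higher, and 18% of all tested genes passed. Between genotypes in refed liver the median log2 difference of the 22 genes was -0.38. Without the library labelled HRD1Alb refed replicate 1, 14 genes of this list passed as lower and 1 as higher, where 52.8% of all tested genes passed, and without replicate 2 these counts were 3 and 1 among 23 tested genes, where 23.7% did, with Lgr4, Tcf7l1 and Fzd4 among the lower genes in both.

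Among 14 pericentral target genes of β-catenin, all tested, 1 passed in each genotype comparison. Cyp27a1, a sterol hydroxylase of bile acid synthesis, fell by 0.94 in fasted HRD1Alb liver, and Slc22a3, an organic cation transporter, rose by 2.79 in refed HRD1Alb liver. Axin2 and Glul, both direct targets of the pathway, had log2 differences of 0.18 and 0.04 in refed liver, with adjusted p of 0.74 and 0.851. Of 10 fetal and dedifferentiation genes 8 were tested. Afp, the α-fetoprotein of the fetal liver, was at 1.45 and 1.24 CPM in fasted WT and at 4.71 and 3.92 CPM in fasted HRD1Alb liver, and it was higher in HRD1Alb in fasted and in refed liver (log2 fold change 1.68, adjusted p = 0.0426, and 1.09, adjusted p = 0.0399). Dlk1, a marker of hepatoblasts, passed in refed liver with 0 counts in both WT libraries and 16 and 8 counts in the HRD1Alb libraries. No gene of this list passed as lower between genotypes with all libraries. The log2 differences of the 8 ranged from -0.79 to 3.74 in fasted and from -0.73 to 6.4 in refed liver. Peg3, another gene of the list, was at 16.1 and 25.4 CPM in refed WT liver. In refed HRD1Alb liver Peg3 was at 24.9 and 0.153 CPM.

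The samples were liver tissue, and fewer cells of a type and less RNA per cell cannot be told apart in them. The 9 hepatocyte markers together were at 121000 to 167000 CPM in WT and at 73300 to 111000 CPM in HRD1Alb liver. Albumin, listed as Alb, made up most of this sum with 47800 to 111000 CPM over the 8 samples. Not every marker was lower in HRD1Alb liver. Tat had log2 differences of 0.13 in fasted and 0.48 in refed liver, and its samples overlapped between genotypes. Ass1, a urea cycle enzyme of hepatocytes, was at 0.563 to 1.02 CPM except in HRD1Alb refed replicate 2, at 2.67 CPM. These values rest on 25 to 122 counts per library, against 50248 to 324932 for Cps1, another marker of the list. Why Ass1 had so few counts was not tested, and its values are not read as a level in hepatocytes. None of the 9 was at 0. Markers of Kupffer cells moved with genotype. Their summed level was 91.1 to 106 CPM in WT and 215 to 463 CPM in HRD1Alb liver, and 6 of 7 passed as higher in refed HRD1Alb liver and 1 of 7, Cd68, in fasted HRD1Alb liver. The largest log2 fold changes of the list in refed liver were 4.05 for Marco, 2.01 for Cd68, 1.83 for Cd5l and 1.48 for Vsig4. Stellate cell markers summed to 170 to 368 CPM in WT and 361 to 502 CPM in HRD1Alb liver, with 3 of 8 (Col1a1, Col3a1 and Des) higher in refed HRD1Alb liver, and proliferation markers to 5.62 to 7.49 CPM against 12.3 to 21.8 CPM, with 3 of 8 (Aurkb, Top2a and Cdk1) higher there. With both HRD1Alb refed libraries left out, 7 of 7 Kupffer cell markers and 7 of 8 proliferation markers passed as higher in fasted HRD1Alb liver. In that fit 22.2% of all tested genes passed in either direction. No marker of these 3 lists was at 0. The part of other cell types in the differences of the 8 factors was not tested.

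**Figure D5:**
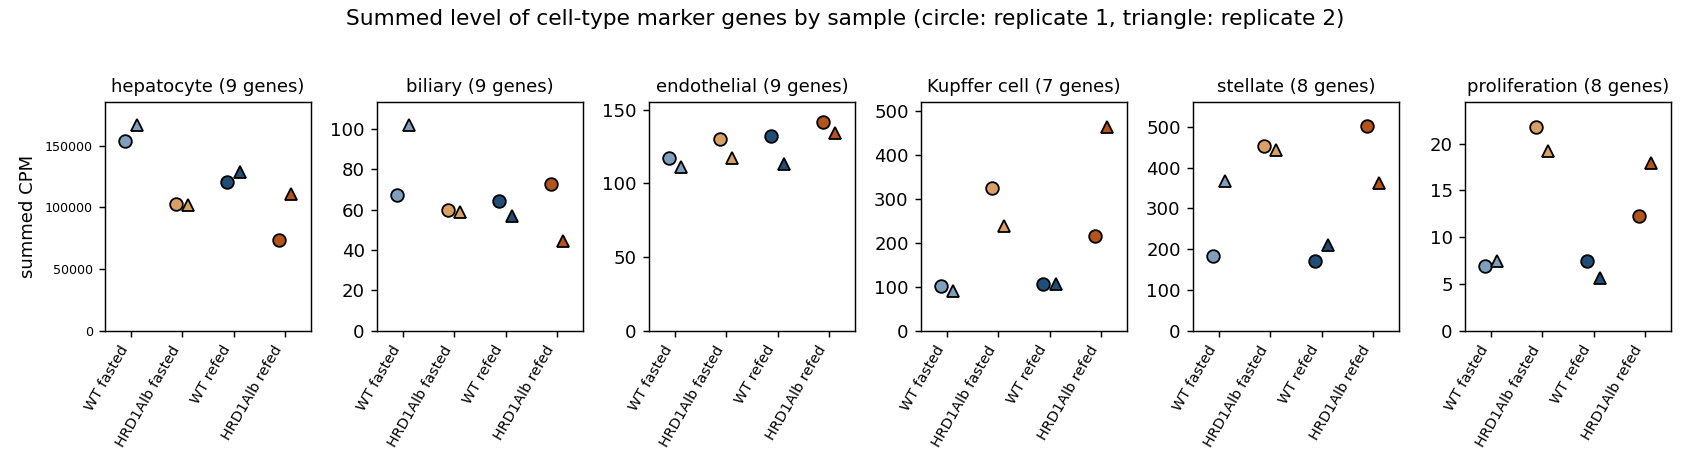
Summed CPM of the marker genes of 5 cell types and of proliferation on the vertical axes, each from 0, for every sample in the 4 groups, with circles for replicate 1 and triangles for replicate 2. Kupffer cell and proliferation markers are higher in every HRD1Alb sample than in every WT sample, hepatocyte markers are lower, and biliary and endothelial markers overlap.

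Markers that bear on single factors were also read. Endothelial and lymphatic markers, which include lymphatic genes that accompany Prox1, summed to 111 to 142 CPM over the 8 samples, with 0 of 9 passing in any comparison with all libraries. Single markers of this list moved in the library where Prox1 was lowest, at 7.06 CPM: in HRD1Alb refed replicate 2 Erg was at 0.658 CPM against 2.1 to 3.26 CPM in the other 7 samples, Kdr at 7.83 CPM against 13.8 to 21.1 CPM, and Clec4g at 46.4 CPM against 16.1 to 25.8 CPM. Flt4, Pdpn and Lyve1, listed as lymphatic markers, lay within the range of the other 7 samples there. Whether their reads came from lymphatic or from other endothelium cannot be told in liver tissue. Flt4 was at 14.7 CPM against 10.6 to 15.4 CPM, and Pdpn at 0.745 CPM against 0.249 to 1.8 CPM. Lyve1 was at 6.07 CPM against 4.41 to 17.8 CPM. Without replicate 1, Erg and Kdr passed as lower and Clec4g as higher between genotypes in refed liver, and without replicate 2 Lyve1 passed as higher. Their part in the values of Prox1 was not tested. Biliary markers, which bear on the ONECUT and FOXA factors because bile duct cells express them too, summed to 44.3 to 102 CPM with 0 of 8 tested genes passing with all libraries. Without HRD1Alb refed replicate 1, 2 of the 8 passed as lower in refed HRD1Alb liver, among them Muc1. Up to 1 of the 9 biliary markers was at 0 in a sample.

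The genes whose pattern over the 8 samples was most like that of a factor were found by Pearson's correlation of log2 CPM among 11928 genes with a mean of at least 1 CPM. The samples share the depth and length effects described above, and these values are descriptions only. For Cebpa the closest were Fgfr4, the hepatic receptor for FGF15 (r = 0.989), Gbp10 (r = 0.988) and Adh4 (r = 0.986). For Onecut1 they were Ppp1r13b (r = 0.971), D630039A03Rik (r = 0.966) and Msl1 (r = 0.953), and for Onecut2 Agxt2 (r = 0.989), Daam1 (r = 0.985) and Prr16 (r = 0.979). Prox1 was matched most closely by Gm608 (r = 0.998), Plcg1 and Fam168a (both r = 0.997). Foxa1 was closest to Zrsr1 (r = 0.993), Foxa3 to 9530082P21Rik (r = 0.982) and Tcf7l2 to Cog7 (r = 0.959), and Cd59b (r = 0.985) and Rab40c (r = 0.982) were among the closest to Foxa2. Among the 8 factors themselves the highest r was 0.9 between Onecut2 and Prox1, and that between Foxa2 and Cebpa was 0.84. Of the 3 FOXA genes Foxa1 stood apart. The r was 0.82 between Foxa2 and Foxa3, -0.09 between Foxa1 and Foxa2 and -0.56 between Foxa1 and Foxa3.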

How the data were processed

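Liver RNA of 8 samples in 4 groups was sequenced by the authors on an Illumina NextSeq 500. The values the authors deposited are counts of reads per gene symbol as whole numbers, without normalization. The study's methods name ERANGE for counting and limma for testing, while the submitters' processing notes list cutadapt, STAR, HTSeq, DESeq2 and build mm10, and annotation and strand use are not given in the sources used here. Counts were analysed here with edgeR 4.0.16 in R 4.3.3: genes were kept by filterByExpr, scaled by TMM, and tested by the quasi-likelihood test in 1 model with the 4 groups and 4 residual degrees of freedom. Adjustment of p-values over all tested genes followed Benjamini and Hochberg, and a gene passed at an adjusted p under 0.05. The SE of a log2 fold change is its size over the square root of the F statistic.

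The 8 factors and the gene lists were chosen with earlier results of these data known. All 8 factors are named, with Syvn1, the 4 genes of each list and direction with the largest change among those that passed, genes related to a factor, and the 3 closest genes by correlation of log2 CPM (prior count 1). Pck1 in the genotype comparison of refed liver, Gys2, Axin2 and Glul were named after their values were seen. The genes Tf and Adgre1 of the lists had no match in the files, and single genes that the rule would name are not reported here. Exon lengths and positions came from GENCODE M21 (GRCm38) by gene symbol for 12941 of the tested genes (90.3%). The smallest p that exact permutation of 2 against 2 samples allows is 0.333, and the samples are not stated to come from separate animals, so p-values measure the spread between these samples. Alternatives were RLE scaling, the DESeq2 1.42.0 Wald test, limma-trend 3.58.1, other filters, fits on the samples of a contrast only, the replicate block, a correction for exon length by loess, and each library left out.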

Additional observations from a re-analysis of the deposited data

How the results depend on the processing

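Of the 8 factors, 0 passed between genotypes in fasted liver with all 8 libraries, 2 with only the 4 samples of that contrast, 1 at an unadjusted p under 0.05, and 2 with both HRD1Alb refed libraries left out. Leaving out 1 library at a time gave 0 to 2. In refed liver 2 passed between genotypes, 4 with DESeq2, 0 with only the samples of the contrast, 5 with the correction for exon length and 6 at an unadjusted p, and 0 to 6 with 1 library left out. On refeeding in WT liver 0 passed, 2 with DESeq2, 1 with limma-trend, 1 without a filter on low counts, 4 with only the samples of the contrast, 2 with the length correction, 4 at an unadjusted p and 4 with both HRD1Alb refed libraries left out, and 0 to 4 with 1 library left out. On refeeding in HRD1Alb liver 2 passed, 0 with only the samples of the contrast, and 0 to 6 with 1 library left out. The interaction gave 0, 2 at an unadjusted p, and 0 to 3 with 1 library left out. Leaving out both HRD1Alb refed libraries was chosen after seeing the data. The counts of this paragraph are given without the share of all tested genes and are not read as a result about the factors.

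Samples with the same replicate number deviated together only weakly (r from 0.0161 to 0.179 over 6 pairs of groups), 1 pair was over 0.1, and the labels tie the numbers to nothing, so samples share only a number. With the replicate block 1 of the 8 passed in refed liver, 1 on refeeding in WT and 1 in HRD1Alb liver. With the block and the length correction these counts were 5, 2 and 1. The counts of both fits are given without the share of all tested genes and are not read as a result about the factors. Over all genes the replicate block gave 119 in place of 194 calls in fasted liver, and with the length correction 434.

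Calls over all tested genes varied as widely. In fasted liver 194 genes passed, 1094 with DESeq2, 323 without a filter, 2033 with only the samples of the contrast, 520 with the length correction, 2630 at an unadjusted p, 3121 with both HRD1Alb refed libraries left out, and 0 to 3159 with 1 library left out. In refed liver 1709 passed, 3190 with DESeq2, 0 with only the samples of the contrast, 4775 at an unadjusted p, and 1 to 7705 with 1 library left out. On refeeding in WT liver 374 passed, 1086 with DESeq2, 1882 with only the samples of the contrast, 672 with the length correction, 638 with that and the replicate block, 2339 at an unadjusted p, 2535 with both HRD1Alb refed libraries left out, and 0 to 2508 with 1 left out. On refeeding in HRD1Alb liver 1501 passed, 2921 with DESeq2, 0 with only the samples of the contrast, 4538 at an unadjusted p, and 15 to 7496 with 1 library left out. The interaction gave 0, 105 with DESeq2, 2 without a filter, 1209 at an unadjusted p, and 0 to 4878 with 1 library left out. Foxa3 was the 1 factor whose direction turned past the threshold, between genotypes in refed liver, with log2 fold changes of 0.06 with all libraries, -0.79 without HRD1Alb refed replicate 2 and 0.58 without replicate 1. The fits on fewer samples differ in residual degrees of freedom, and the cause of the other changes was not tested.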
